A study of Mus musculus with 12 samples.

Results

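The keratin gene family was taken as every symbol of the counts table that reads Krt, a number and at most 1 letter, which gave 55 genes of the 53735 symbols listed. RNA sequencing had been done on mammary epithelial cells of the mouse, sorted live by the surface proteins CD24 and CD49f into luminal and basal populations. The cells came from MMTVRANK mice, which carry the receptor Rank (gene Tnfrsf11a) under the mouse mammary tumour virus promoter, and from WT mice. The 4 groups of 3 libraries were MMTVRANK luminal, MMTVRANK basal, WT luminal and WT basal. Age, strain and treatment are not given in the labels, nor whether the 3 libraries of a group came from separate animals, so the p-values below measure the spread between these libraries.

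Keratins are the intermediate filament proteins of epithelial cells. A filament is built from pairs of an acidic type I and a basic type II keratin, so each epithelium expresses partners of both types together. In the mammary gland, the luminal cells that line the ducts are known for the simple epithelial keratins Krt8, Krt18, Krt19 and Krt7, and the basal, myoepithelial cells for Krt5, Krt14 and Krt17, while Krt1 and Krt10 belong to the upper layers of the epidermis and a further set to hair follicles.

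The libraries held 12459547 to 15069578 counts. Basal markers that are not keratins summed to 29843 to 32863 CPM (read counts divided by library size, with TMM factors applied) in MMTVRANK basal and 23744 to 26275 CPM in WT basal libraries, against 115 to 516 CPM in MMTVRANK luminal and 82.4 to 177 CPM in WT luminal libraries. For the WT replicate 2 libraries the title and the cell subtype field name opposite populations, and groups here follow the titles, with which the markers of both libraries went. Tnfrsf11a was at 319, 155 and 238 CPM in MMTVRANK luminal libraries, against 6.36, 90.7 and 9.89 CPM in WT luminal libraries. It was at 414, 129 and 218 CPM in MMTVRANK basal libraries, against 73.6, 158 and 65.1 CPM in WT basal libraries. The libraries labelled WT replicate 2 were thus the highest of their groups, and the basal one lay above MMTVRANK basal replicate 2. Neither genotype difference of Tnfrsf11a passed the test (log2 fold change 2.74, adjusted p = 0.224 in luminal cells, and 1.36, adjusted p = 0.977 in basal cells).

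Of the 55 keratin genes, 28 are type I and 27 type II. In the GRCm38.p6 coordinates of the deposited table, 27 type I genes lie on chromosome 11 between 99232761 and 100269871, and all 27 type II genes lie on chromosome 15 between 101347444 and 102032027. Krt18 is the type I gene that lies at the end of the type II cluster on chromosome 15 (102028180 to 102032027, plus strand), beside its partner Krt8 (101996698 to 102004482, minus strand). To show what precedes these genes, the bases upstream of Krt18 (chr15:102027966-102028179, plus strand), Krt8 (chr15:102004483-102004592, minus strand), Krt5 (chr15:101712906-101713155, minus strand) and Krt10 (chr11:99389365-99389614, minus strand) are printed from RefSeq's GRCm38.p6 table, from 250 bases before the RefSeq start up to that start or, where it comes first, the start of the deposited gene model. They are the luminal pair, the main basal type II keratin, and the epidermal keratin that separated single libraries in the values below. Capitals mark matches, on either strand, to 4 motifs that were searched, which are the TATA box (spelled TATAAA), an Sp1 box (spelled GGGCGG), the AP-1 site (spelled TGANTCA) and the AP-2 site (spelled GCCNNNGGC).
Krt18: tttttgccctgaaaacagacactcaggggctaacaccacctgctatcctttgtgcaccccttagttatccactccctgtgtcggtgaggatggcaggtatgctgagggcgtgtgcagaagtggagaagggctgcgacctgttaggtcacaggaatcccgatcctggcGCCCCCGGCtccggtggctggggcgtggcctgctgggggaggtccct
Krt8: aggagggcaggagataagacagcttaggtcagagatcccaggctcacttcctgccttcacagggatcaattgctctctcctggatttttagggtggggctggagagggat
Krt5: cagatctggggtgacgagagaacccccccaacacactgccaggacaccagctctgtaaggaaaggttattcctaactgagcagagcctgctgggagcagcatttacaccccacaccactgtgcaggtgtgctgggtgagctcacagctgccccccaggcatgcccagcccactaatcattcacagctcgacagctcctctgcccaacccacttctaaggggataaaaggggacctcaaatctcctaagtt
Krt10: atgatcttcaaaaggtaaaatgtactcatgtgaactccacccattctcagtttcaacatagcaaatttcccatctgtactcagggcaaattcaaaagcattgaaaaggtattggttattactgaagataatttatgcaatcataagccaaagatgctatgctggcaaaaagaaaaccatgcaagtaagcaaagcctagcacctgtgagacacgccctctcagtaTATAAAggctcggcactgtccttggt

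Over the 250 bases before each start, TATAAA occurred in 17 of the 36 keratins found in the RefSeq table (47.2%), against 13% of all 27018 promoters there. Of the 17, all but Krt20 are keratins of the hair follicle, the hair shaft or the suprabasal and barrier class, and Krt5, Krt8 and Krt18 are not among them. Most of the 36 keratins scanned also belong to these classes. Krt15, Krt17, Krt19, Krt6a and Krt80 were not found in the RefSeq table and were not scanned. The RefSeq starts of Krt14 and Krt7 lie 1518 and 1360 bases from the starts of the deposited gene models. Few of the main mammary keratins were thus scanned near the deposited start. GGGCGG occurred in 2 keratins (5.56%), against 32.9% of all promoters. TGANTCA occurred in 1 (2.78%, against 6.87%), and GCCNNNGGC in 5 (13.9%, against 13.6%), Krt18 included. These are matches of letters, and no binding was measured.

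Most keratins were not expressed in any of the 4 groups by the measure used here. A keratin was called expressed in a group when it reached 1 CPM in all 3 of its libraries. By this measure 19 keratins were expressed in MMTVRANK luminal, 15 in MMTVRANK basal, 14 in WT luminal and 14 in WT basal cells, 21 in at least 1 group and 9 in all 4 (Krt7, Krt8, Krt10, Krt15, Krt16, Krt17, Krt18, Krt19 and Krt80). By the same measure, both luminal groups alone expressed Krt4, Krt6a, Krt77, Krt78 and Krt87, and both basal groups alone expressed Krt42 and Krt71. This does not make them absent elsewhere. WT basal replicate 2 was above 1 CPM for Krt6a, Krt77 and Krt78, and was the highest of all libraries for Krt77. MMTVRANK luminal replicate 1 was above 1 CPM for Krt71. With 5 CPM as the minimum, 12 keratins were expressed in MMTVRANK luminal, 12 in MMTVRANK basal, 9 in WT luminal and 12 in WT basal cells, and with 0.5 CPM it was 20 in MMTVRANK luminal, 20 in MMTVRANK basal, 18 in WT luminal and 16 in WT basal cells. The higher count in MMTVRANK luminal than in MMTVRANK basal cells thus held at 1 CPM and at neither other minimum. Per library, 20 to 21 keratins reached 1 CPM in MMTVRANK luminal, 19 to 23 in MMTVRANK basal, 15 to 20 in WT luminal and 16 to 25 in WT basal libraries. In bulk RNA, fewer cells of a type and less RNA per cell cannot be told apart.

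The 21 keratins that stayed under 1 CPM in every library include 12 of the 16 hair shaft keratins, 3 of the 9 of the follicle sheath, 4 of the 12 suprabasal and barrier keratins (Krt2, Krt12, Krt13 and Krt76), Krt6b and Krt88. Krt26 and Krt81 had no count at all. The other 34 reached 1 CPM in at least 1 library, and 30 of the 55 passed the filter on low counts and were tested (15 of each type). Of all 53735 symbols, 18236 passed this filter. The share of all symbols that reached 1 CPM was not computed.

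**Figure D1:**
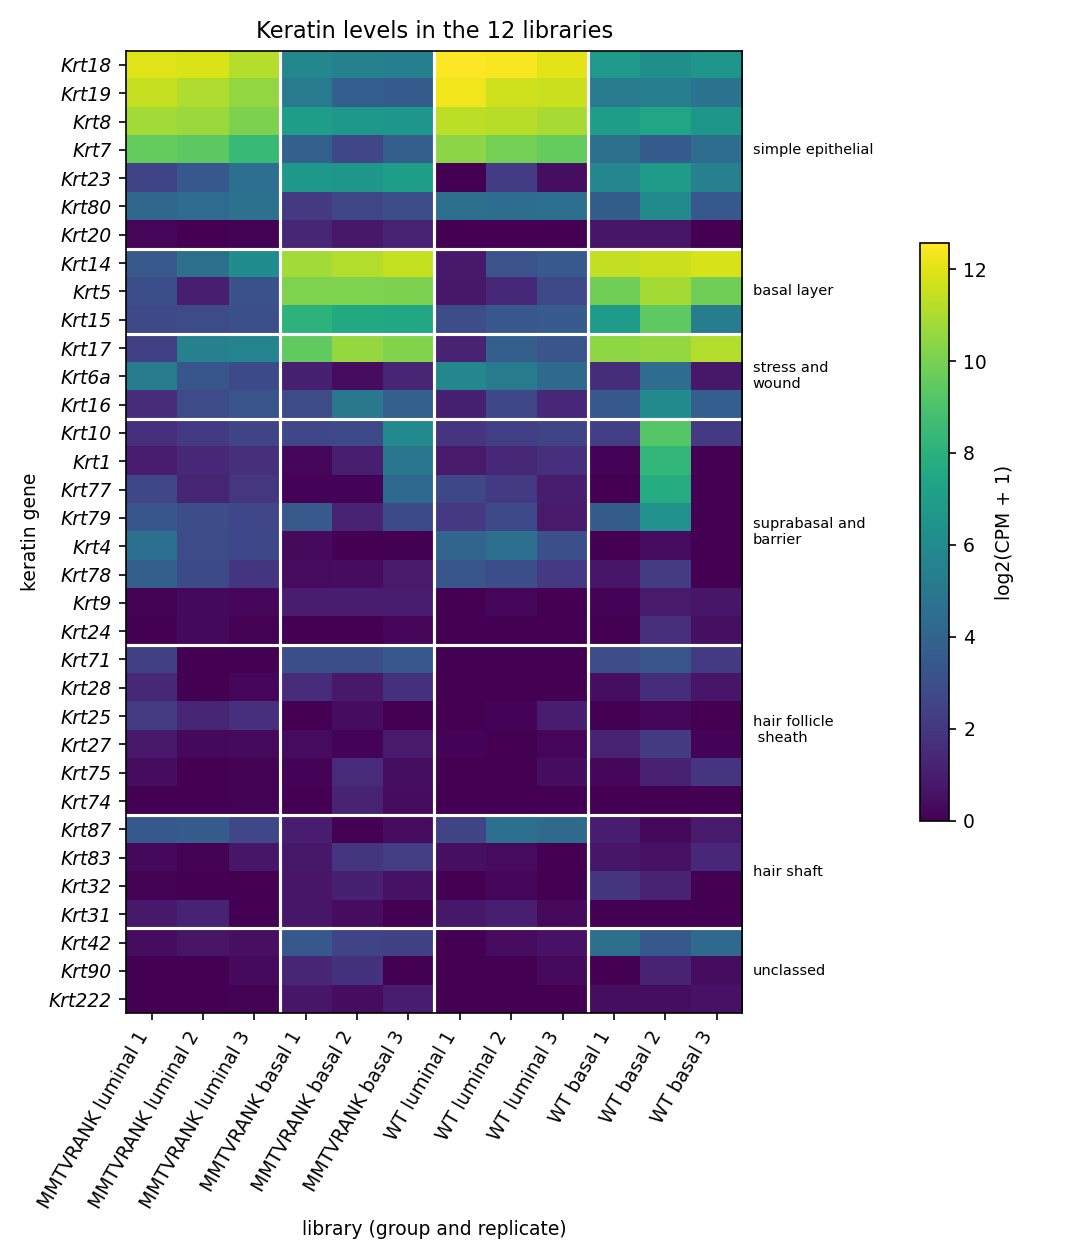
Levels of the 34 keratins that reached 1 CPM in at least 1 library, as log2(CPM + 1), with the genes grouped by class down the page and the 12 libraries across, 3 for each group. The simple epithelial keratins are brightest in the luminal columns, Krt14, Krt5 and Krt17 in the basal columns, and the epidermal keratins Krt10, Krt1 and Krt77 stand out in WT basal replicate 2.

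Keratins took 0.642 to 1.03% of all counts in MMTVRANK luminal, 0.383 to 0.52% in MMTVRANK basal, 1.04 to 1.52% in WT luminal and 0.534 to 0.861% in WT basal libraries. For levels between genes, CPM were divided by the deposited exon length (RPKM). In both luminal groups the order was Krt18, Krt19, Krt8 and Krt7, in every library. Krt18 alone made 52.4% of the keratin RPKM in MMTVRANK luminal and 52.2% in WT luminal cells, and the 4 genes together made 96.1 to 98.7% in MMTVRANK luminal and 99.0 to 99.4% in WT luminal libraries. In both basal groups the order of the means was Krt14, Krt17, Krt5 and Krt15. Krt14 made 45.3% of the keratin RPKM in MMTVRANK basal and 44.2% in WT basal cells. Krt17 lay above Krt5 in 2 of 3 MMTVRANK basal and 3 of 3 WT basal libraries, so these neighbours were ordered less firmly. Krt17 is best known as a keratin of skin appendages and of wounded epidermis, and here it stood second, at 734 ± 251 RPKM in MMTVRANK basal and 1103 ± 274 RPKM in WT basal cells (SD, n = 3 each).

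By RPKM, type I keratin RNA outweighed type II in every library. The deposited length sums all annotated exons of a gene, which lowers the RPKM of a gene with exons outside its main transcript. Krt7 transcripts hold 7093 distinct 50-base stretches, against 1909 for Krt8. What part the lengths have in the ratio of the types was not tested. The ratio of summed RPKM was 4.00, 4.05 and 4.02 in MMTVRANK luminal and 3.07, 4.36 and 4.65 in MMTVRANK basal libraries, and it was 4.57, 4.03 and 4.09 in WT luminal and 5.34, 3.18 and 7.48 in WT basal libraries. The partners Krt18 and Krt8 were not held at 1 ratio. Krt18 RPKM over Krt8 RPKM was 3.00, 3.13 and 2.89 in MMTVRANK luminal, against 0.599, 0.598 and 0.606 in MMTVRANK basal libraries. It was 3.30, 3.18 and 3.00 in WT luminal, against 1.12, 0.618 and 1.31 in WT basal libraries. The luminal libraries lay above all basal ones. Of the 50-base stretches of Krt8 transcripts, 26.9% also occur in the pseudogene Krt8-ps, so reads of the 2 can be confused or left uncounted. What part this has in the Krt8 level, and in the ratios that use it, was not tested.

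Luminal and basal cells were compared within each genotype with edgeR's quasi-likelihood test, which the threshold of 0.05 on the p adjusted over all 18236 genes tested refers to. In MMTVRANK cells 15 of 30 keratins passed, against 33.2% of all genes (9 higher and 6 lower in luminal cells, against 16.1% and 17% of all genes). In WT cells 19 of 30 passed, against 38.1% of all genes (7 higher and 12 lower, against 18% and 20% of all genes). The median log2 fold change over the 30 keratins was -1.57 in MMTVRANK (0.05 over all genes) and -3.35 in WT cells (-0.07 over all genes). Groups did not overlap for 21 keratins in MMTVRANK (54.6% of all genes) and for 17 in WT cells (46.1% of all genes). Calls were shared by 12 keratins, 80.0% of the MMTVRANK and 63.2% of the WT calls, all with the same sign. Of these, 11 passed in both genotypes under every alternative processing tried, Krt23 being the exception.

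The simple epithelial keratins rose in luminal cells, 5 of the 6 tested in MMTVRANK and 4 of the 6 in WT cells. Krt18, the type I partner of Krt8, had 3947, 3709 and 2275 CPM in MMTVRANK luminal libraries, against 55.2, 45.1 and 42.4 CPM in MMTVRANK basal libraries. It had 6042, 5575 and 4196 CPM in WT luminal libraries, against 107, 74.6 and 95.2 CPM in WT basal libraries. Every luminal library lay far above every basal one in both genotypes, with log2 fold changes of 6.12 ± 0.30 in MMTVRANK (SE, adjusted p = 1.30e-07) and 5.84 ± 0.29 in WT (SE, adjusted p = 2.45e-07). Krt8, its type II partner, had 1791, 1614 and 1072 CPM in MMTVRANK luminal libraries, against 126, 103 and 95.2 CPM in MMTVRANK basal libraries. It had 2498, 2387 and 1903 CPM in WT luminal libraries, against 129.6, 165 and 99.0 CPM in WT basal libraries. Again the populations were well apart, but the difference was smaller than for Krt18, with log2 fold changes of 3.79 ± 0.26 in MMTVRANK (SE, adjusted p = 8.28e-07) and 4.11 ± 0.26 in WT (SE, adjusted p = 6.22e-07).

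Krt19, the type I keratin that lacks a tail domain, had 2808, 2154 and 1475 CPM in MMTVRANK luminal libraries, against 36.4, 12.5 and 11.4 CPM in MMTVRANK basal libraries. It had 4949, 3222 and 2967 CPM in WT luminal libraries, against 34.7, 39.9 and 26.5 CPM in WT basal libraries. The populations did not overlap, and the log2 fold changes were 6.74 ± 0.53 in MMTVRANK (7.49 without MMTVRANK basal replicate 1) and 6.78 ± 0.53 in WT (SE). Krt7, a type II keratin of ductal epithelia, had 775, 672 and 352 CPM in MMTVRANK luminal libraries, against 13.4, 5.38 and 12.9 CPM in MMTVRANK basal libraries. It had 1317, 969.7 and 783 CPM in WT luminal libraries, against 23.5, 11.6 and 22.1 CPM in WT basal libraries. Here too each luminal library exceeded all basal ones, with log2 fold changes of 5.82 ± 0.48 in MMTVRANK and 5.74 ± 0.47 in WT (SE). Krt20, a keratin of the gut lining in the same class, peaked at 1.51 CPM, in MMTVRANK basal replicate 1, and was not tested.

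Krt23, also of this class, fell in luminal cells of both genotypes. It had 5.10, 9.64 and 22.9 CPM in MMTVRANK luminal libraries, against 102, 99.1 and 132 CPM in MMTVRANK basal libraries. It had 0, 3.47 and 0.38 CPM in WT luminal libraries, against 56.0, 120.4 and 42.8 CPM in WT basal libraries. All basal libraries were above all luminal ones, and the log2 fold changes were -3.14 ± 0.85 in MMTVRANK (SE, adjusted p = 0.0149) and -5.83 ± 1.0 in WT (SE, adjusted p = 0.00104). The MMTVRANK call was lost without MMTVRANK luminal replicate 1 (-2.77, adjusted p = 0.0632) or replicate 2 (-2.98, adjusted p = 0.0712). The WT value was -8.42 without WT luminal replicate 2.

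**Figure D2:**
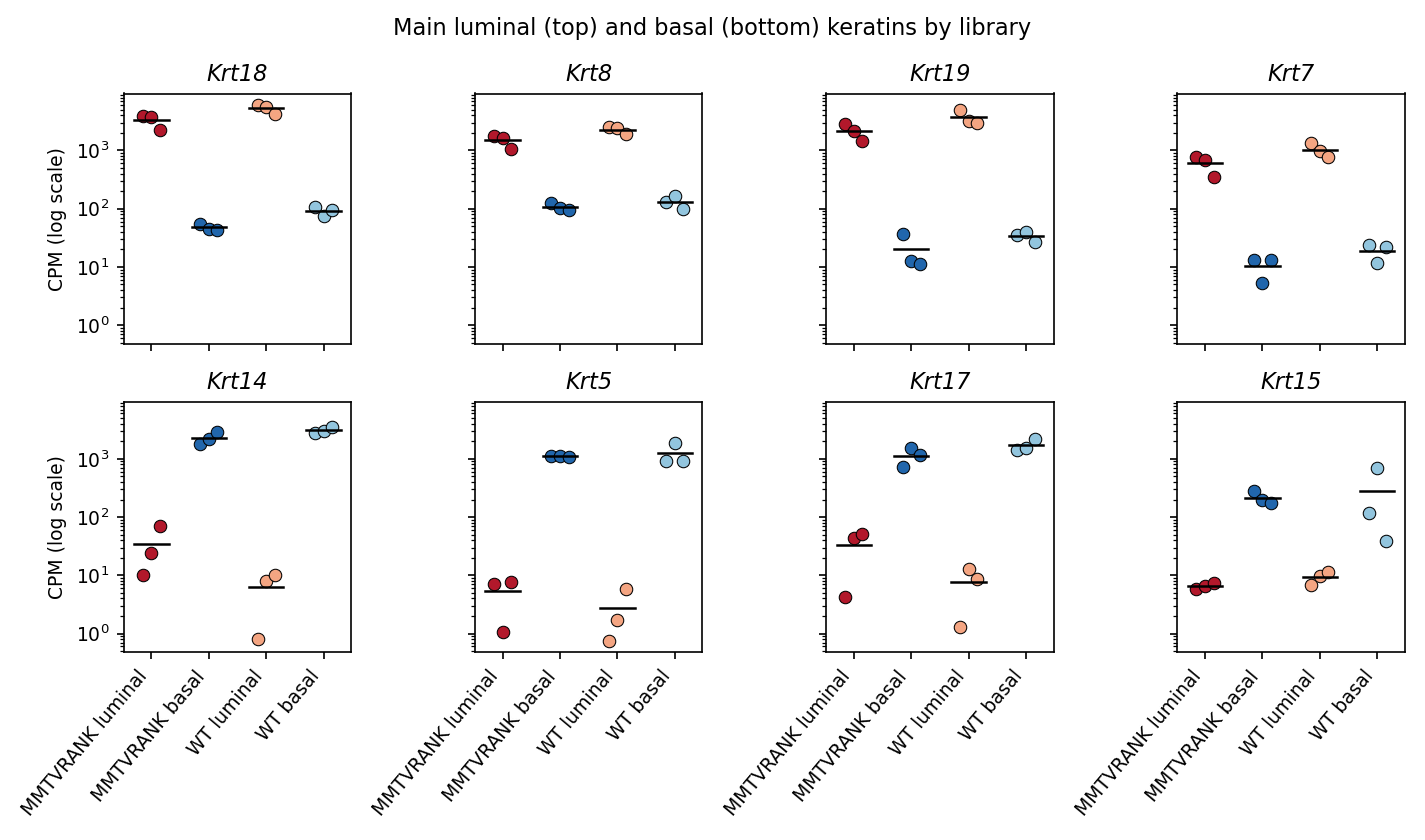
CPM on a log axis for 4 luminal keratins (top row) and 4 basal keratins (bottom row), with 1 point a library and a line at the mean of each group of 3. Luminal and basal libraries did not overlap for any of the 8 genes in either genotype, and the MMTVRANK luminal points of Krt14 and Krt17 are spread widely.

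The 3 keratins of the basal epidermal layer, Krt14, Krt5 and Krt15, all fell in luminal cells. Krt14, the type I partner of Krt5, had 10.2, 23.7 and 69.1 CPM in MMTVRANK luminal libraries, against 1816, 2223 and 2852 CPM in MMTVRANK basal libraries. It had 0.823, 8.15 and 10.2 CPM in WT luminal libraries, against 2727, 2985 and 3569 CPM in WT basal libraries. MMTVRANK luminal replicate 3 was the highest of the luminal libraries and still far below the basal ones. The log2 fold changes were -6.06 ± 0.88 in MMTVRANK (SE, adjusted p = 0.000349) and -8.91 ± 1.0 in WT (SE, adjusted p = 5.65e-05), the MMTVRANK one being -7.08 without MMTVRANK luminal replicate 3. Krt5 had 7.21, 1.08 and 7.83 CPM in MMTVRANK luminal libraries, against 1125, 1109.6 and 1088 CPM in MMTVRANK basal libraries. It had 0.748, 1.70 and 5.90 CPM in WT luminal libraries, against 925, 1874 and 926 CPM in WT basal libraries. The populations were wide apart, with log2 fold changes of -7.68 ± 0.87 in MMTVRANK and -8.78 ± 0.92 in WT (SE), the WT one being -9.96 without WT luminal replicate 3. Krt14 RPKM over Krt5 RPKM was 2.02, 2.5 and 3.28 in MMTVRANK basal and 3.68, 1.99 and 4.82 in WT basal libraries.

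Krt15, a type I keratin known from hair follicle stem cells, had 5.91, 6.64 and 7.36 CPM in MMTVRANK luminal libraries, against 276, 194 and 176 CPM in MMTVRANK basal libraries. It had 6.96, 9.56 and 11.4 CPM in WT luminal libraries, against 119, 695 and 38.1 CPM in WT basal libraries. The basal libraries were the higher ones throughout, with WT basal replicate 2 far above the other two. The log2 fold changes were -5.02 ± 0.89 in MMTVRANK and -4.93 ± 0.88 in WT (SE), the WT one being -3.07 without WT basal replicate 2.

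Among the stress and wound keratins, Krt17 fell in luminal cells in both genotypes, while Krt16 and Krt6a each passed in 1. Krt17 had 4.21, 42.9 and 50.4 CPM in MMTVRANK luminal libraries, against 732, 1507 and 1176 CPM in MMTVRANK basal libraries. It had 1.27, 12.7 and 8.81 CPM in WT luminal libraries, against 1391, 1547 and 2193 CPM in WT basal libraries. No libraries overlapped, and the log2 fold changes were -5.13 ± 0.92 in MMTVRANK and -7.81 ± 1.1 in WT (SE). Krt42, its neighbour 1852 bases away on chromosome 11, is a type I keratin whose human counterpart is a pseudogene. It had 0.34, 0.574 and 0.409 CPM in MMTVRANK luminal libraries, against 9.82, 4.8 and 4.22 CPM in MMTVRANK basal libraries. It had 0, 0.283 and 0.507 CPM in WT luminal libraries, against 23.5, 9.84 and 18.9 CPM in WT basal libraries. Krt42 was thus low but basal in every library, with log2 fold changes of -3.80 ± 0.71 in MMTVRANK and -5.96 ± 0.79 in WT (SE), the WT one being -6.82 without WT luminal replicate 3.

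Krt16, a type I keratin of injured epidermis, had 1.97, 6.45 and 8.53 CPM in MMTVRANK luminal libraries, against 6.27, 31.3 and 13.7 CPM in MMTVRANK basal libraries. It had 1.12, 5.6 and 1.71 CPM in WT luminal libraries, against 10.03, 65.7 and 12.6 CPM in WT basal libraries. The MMTVRANK populations overlapped and the WT ones did not. Krt16 fell in WT luminal cells by 3.39 ± 0.96 on the log2 scale (SE, adjusted p = 0.0172), and its MMTVRANK value was -1.59 ± 0.89 (SE, adjusted p = 0.206). With the replicate number as a block over all 4 groups, Krt16 also passed in MMTVRANK (-1.39, adjusted p = 0.0272). The check of pairing was met between luminal and basal libraries but not between genotypes in basal cells, which this block also ties. The WT call was lost without WT basal replicate 2, where the value shrank to -2.003 (adjusted p = 0.0783). It was also lost without WT luminal replicate 1 (-3.01, adjusted p = 0.0739) or WT luminal replicate 3 (-3.13, adjusted p = 0.0631), with less change in the value. Of its 50-base stretches, 37.6% occur in other genes, mostly the predicted gene Gm11597, so its level is uncertain.

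Krt6a, a type II keratin of hair follicles and wounds, had 36.4, 9.38 and 6.08 CPM in MMTVRANK luminal libraries, against 1.13, 0.337 and 1.49 CPM in MMTVRANK basal libraries. It had 54.7, 35.1 and 19.6 CPM in WT luminal libraries, against 2.08, 21.3 and 0.768 CPM in WT basal libraries. All luminal libraries exceeded the basal ones of their genotype except that WT basal replicate 2 lay above WT luminal replicate 3. Krt6a rose in MMTVRANK luminal cells (log2 fold change 4.11 ± 1.2, SE, adjusted p = 0.0224) and its WT value was 2.17 ± 1.1 (SE, adjusted p = 0.130). Without WT basal replicate 2 the WT value was 4.66 (adjusted p = 0.00477). The MMTVRANK call was lost without MMTVRANK luminal replicate 1 (2.95, adjusted p = 0.101) or any 1 of the MMTVRANK basal libraries (adjusted p of 0.0597 to 0.0881). Krt6a shares 40.3% of its 50-base stretches with Krt6b, which stayed under 1 CPM here, so the split of reads between them is uncertain.

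Several luminal keratins lie outside the simple epithelial class. Krt4, a type II keratin of the oesophagus and other internal stratified epithelia, had 23.2, 6.19 and 5.61 CPM in MMTVRANK luminal libraries, against 0.227, 0 and 0 CPM in MMTVRANK basal libraries. It had 16.2, 22.8 and 7.36 CPM in WT luminal libraries, against 0, 0.287 and 0 CPM in WT basal libraries. The gene was all but absent from basal libraries. It rose in luminal cells of MMTVRANK (log2 fold change 7.06 ± 1.2, SE, adjusted p = 0.00068) and WT (7.12 ± 1.2, SE, adjusted p = 0.000496). The values rest on single basal libraries, being 10.36 in MMTVRANK without MMTVRANK basal replicate 1 and 10.75 in WT without WT basal replicate 2, the sole basal library of each genotype with a count. From summed counts (535 in luminal and 3 in basal cells) the MMTVRANK ratio was 142-fold (48.4 to 692, an exact interval that covers counting error only).

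Krt87 is grouped with the hair shaft keratins and lies 724 bases from the 3' side of Krt7, on the other strand. It had 9.92, 11.6 and 5.43 CPM in MMTVRANK luminal libraries, against 0.982, 0 and 0.313 CPM in MMTVRANK basal libraries. It had 5.01, 23.3 and 19.02 CPM in WT luminal libraries, against 0.926, 0.216 and 0.853 CPM in WT basal libraries. Luminal libraries were higher throughout, with log2 fold changes of 4.33 ± 0.93 in MMTVRANK (5.74 without MMTVRANK basal replicate 1) and 4.56 ± 0.92 in WT (SE). Of its 50-base stretches, 36.9% occur in other genes, so this level is uncertain. The counting set no strand option, and what part reads from Krt7 have in it was not tested.

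Krt78, a type II keratin of stratified epithelia, had 13.1, 6.00 and 2.80 CPM in MMTVRANK luminal libraries, against 0.302, 0.337 and 0.86 CPM in MMTVRANK basal libraries. It had 9.12, 6.73 and 3.23 CPM in WT luminal libraries, against 0.618, 3.52 and 0 CPM in WT basal libraries. WT basal replicate 2 alone reached into the luminal range. Krt78 rose in MMTVRANK luminal cells (3.84 ± 1.2, SE, adjusted p = 0.0225), and the WT value was 2.18 ± 1.1 (SE, adjusted p = 0.125), or 4.30 (adjusted p = 0.0137) without WT basal replicate 2. The MMTVRANK call was lost without MMTVRANK luminal replicate 1 (adjusted p = 0.0797) or MMTVRANK basal replicate 1 or 2 (adjusted p of 0.0857 and 0.0868).

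Krt80, a type II keratin found in many epithelia, is of the simple epithelial class and 1 of its 5 that rose in MMTVRANK. It had 18.2, 20.1 and 24.4 CPM in MMTVRANK luminal libraries, against 3.32, 5.47 and 6.80 CPM in MMTVRANK basal libraries. It had 23.5, 22.2 and 23.1 CPM in WT luminal libraries, against 12.04, 62.4 and 9.89 CPM in WT basal libraries. The WT luminal libraries were nearly equal, and WT basal replicate 2 was the only basal library above them. Krt80 rose in MMTVRANK luminal cells (log2 fold change 2.01 ± 0.60, SE, adjusted p = 0.0228), and its WT value was -0.30 ± 0.57 (SE, adjusted p = 0.719). Without WT basal replicate 2 the WT value turned to 1.07 (adjusted p = 0.0200). The MMTVRANK call was lost without MMTVRANK luminal replicate 3 (adjusted p = 0.0567) or MMTVRANK basal replicate 1 or 2 (adjusted p of 0.0895 and 0.0693).

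**Figure D3:**
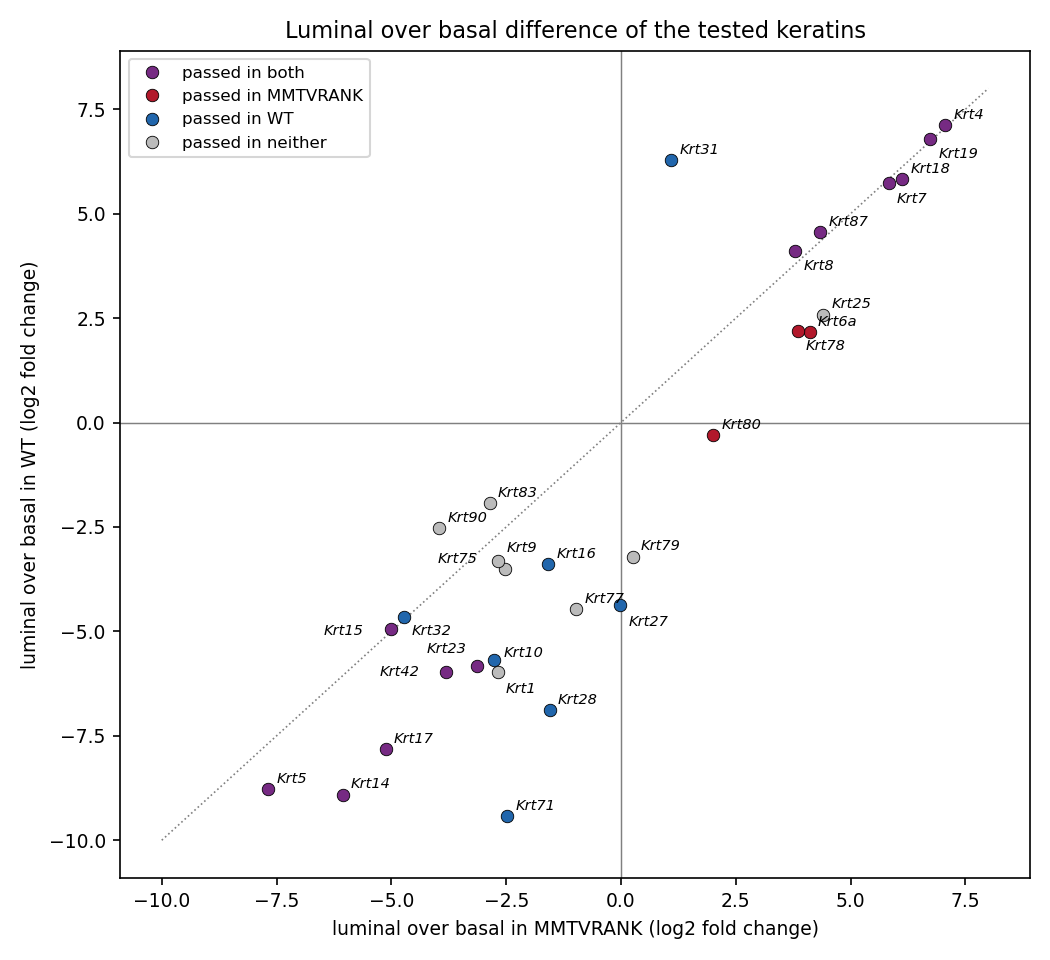
Log2 fold change of luminal over basal cells for the 30 tested keratins, in MMTVRANK on the horizontal and in WT on the vertical axis, coloured by whether the gene passed the test in both, 1 or neither genotype, with a dotted line of equality. The 12 keratins that passed in both lie in the upper right and lower left, and the keratins that passed in WT alone are largely hair and epidermal keratins of low counts.

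Of the hair follicle and hair shaft keratins, few rose above trace levels. Krt71, a type II keratin of the inner root sheath, had 4.28, 0 and 0 CPM in MMTVRANK luminal libraries, against 7.10, 6.98 and 9.62 CPM in MMTVRANK basal libraries. It had no count in the 3 WT luminal libraries, against 6.41, 8.62 and 3.41 CPM in WT basal libraries. Each basal library thus held it, and of the luminal ones only MMTVRANK luminal replicate 1 did. It was 90.8-fold lower in WT luminal cells, with the luminal sum set to 3 counts over the group (adjusted p = 0.0151). The exact interval from summed counts, which covers counting error only, had a lower limit of 73.3-fold. Its MMTVRANK difference did not pass (-2.47 ± 1.4, SE, adjusted p = 0.231), but it did without MMTVRANK luminal replicate 1 (adjusted p = 0.000302). Krt28, of the same sheath, had 1.63, 0 and 0.175 CPM in MMTVRANK luminal libraries, against 2.04, 0.841 and 2.42 CPM in MMTVRANK basal libraries. It had no count in WT luminal libraries, against 0.386, 2.08 and 0.682 CPM in WT basal libraries. This was 15.7-fold lower on the same floor (adjusted p = 0.0210), with a lower limit of 12.2-fold by the same interval.

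The remaining WT calls rested on few counts. Krt27, also of the inner root sheath, had 0.816, 0.191 and 0.234 CPM in MMTVRANK luminal libraries, against 0.302, 0.0841 and 0.86 CPM in MMTVRANK basal libraries. It had 0.0748, 0 and 0.127 CPM in WT luminal libraries, against 1.31, 3.38 and 0.0853 CPM in WT basal libraries. The WT groups overlapped, and the adjusted p was 0.0306 (0.0510 with the replicate block). Krt32, a hair shaft keratin, had 0.068, 0 and 0 CPM in MMTVRANK luminal libraries, against 0.68, 1.18 and 0.547 CPM in MMTVRANK basal libraries. It had 0, 0.142 and 0 CPM in WT luminal libraries, against 2.86, 1.29 and 0 CPM in WT basal libraries. The replicate block moved both of its calls, to an adjusted p of 0.0342 in MMTVRANK (0.0504 without the block) and of 0.0545 in WT (0.0391 without the block). Krt31, a hair shaft keratin with 28.1% of its 50-base stretches in other genes, had 0.816, 1.40 and 0 CPM in MMTVRANK luminal libraries, against 0.68, 0.337 and 0 CPM in MMTVRANK basal libraries. It had 0.748, 1.06 and 0.254 CPM in WT luminal libraries and no count in WT basal libraries. This was 8.63-fold higher in luminal cells with the basal sum set to 3 counts (adjusted p = 0.0472). The exact interval from summed counts had a lower limit of 6.58-fold. Without WT basal replicate 2, the WT calls of Krt27, Krt28, Krt31 and Krt32 were lost (adjusted p of 0.129, 0.0560, 0.0977 and 0.0665). The call of Krt28 was also lost without WT luminal replicate 2 (adjusted p = 0.0511), that of Krt27 without any 1 of the WT luminal libraries, and those of Krt31 and Krt32 without most single libraries.

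The keratins of the upper epidermis were set by single libraries. Krt10, the type I keratin of differentiating epidermis, had 2.38, 3.32 and 5.20 CPM in MMTVRANK luminal libraries, against 5.44, 5.72 and 64.0 CPM in MMTVRANK basal libraries. It had 2.84, 4.11 and 4.95 CPM in WT luminal libraries, against 4.09, 602 and 3.41 CPM in WT basal libraries. Outside WT basal replicate 2 and MMTVRANK basal replicate 3, it stayed between 2.38 and 5.72 CPM in luminal and basal libraries. Krt10 passed in WT (-5.67 ± 1.9, SE, adjusted p = 0.0340), but not with the replicate block (-4.62, adjusted p = 0.171). Without WT basal replicate 2 the WT value was 0.09 (adjusted p = 0.957), and the call was also lost without any 1 of the luminal libraries of either genotype (adjusted p of 0.0643 to 0.131).

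Krt1, its type II partner, had 0.952, 1.60 and 2.22 CPM in MMTVRANK luminal libraries, against 0.151, 1.09 and 29.8 CPM in MMTVRANK basal libraries. It had 0.897, 1.77 and 2.28 CPM in WT luminal libraries, against 0.0772, 315 and 0 CPM in WT basal libraries. The same basal libraries stood out as for Krt10, and the WT difference did not pass (-5.98 ± 2.5, SE, adjusted p = 0.0781). It passed without WT basal replicate 1 or 3 (adjusted p of 0.0459 and 0.0436) and turned to 5.08 without replicate 2. Krt10 RPKM over Krt1 RPKM was 3.99 in WT basal replicate 2 and 4.48 in MMTVRANK basal replicate 3, and between 4.34 and 6.61 in the 6 luminal libraries. In the other basal libraries, where Krt1 was at 1.09 CPM or less, it was 75.2 and 10.9 in MMTVRANK and 111 in WT basal replicate 1, with no Krt1 count in WT basal replicate 3. Krt77, a type II keratin of eccrine ducts and epidermis, had 5.30, 1.47 and 2.92 CPM in MMTVRANK luminal libraries, against 0.0755, 0.0841 and 18.8 CPM in MMTVRANK basal libraries. It had 5.53, 3.33 and 1.01 CPM in WT luminal libraries, against 0, 218 and 0 CPM in WT basal libraries. Apart from the same basal libraries, Krt77 was higher in luminal cells. Krt79, a type II keratin of the hair follicle opening and sebaceous gland, had 9.31, 6.89 and 5.37 CPM in MMTVRANK luminal libraries, against 10.5, 1.35 and 6.18 CPM in MMTVRANK basal libraries. It had 3.22, 5.81 and 0.888 CPM in WT luminal libraries, against 11.9, 79.7 and 0 CPM in WT basal libraries. Here only WT basal replicate 2 stood apart, and neither Krt77 nor Krt79 passed in either genotype.

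In WT basal replicate 2, though not in MMTVRANK basal replicate 3, summed skin genes were also at their highest for the group. The 10 skin keratinocyte markers summed to 140, 98.2 and 104.5 CPM in MMTVRANK basal replicates 1, 2 and 3 and to 55.5 to 293 CPM in WT basal libraries, with WT basal replicate 2 highest, and to 18.97 to 41.1 CPM in MMTVRANK luminal and 9.27 to 27.3 CPM in WT luminal libraries. In WT basal replicate 2, 8 of the 10 reached 1 CPM and none was at 0, as against 5 and 6 of 10 at 1 CPM in the other WT basal libraries. MMTVRANK basal replicate 3 also had 8 of the 10 at 1 CPM, against 6 in each of replicates 1 and 2. Calml3 (82.0, 34.7 and 48.6 CPM) and Lgals7 (46.3, 54.8 and 28.7 CPM) made most of the MMTVRANK basal sums. The cornified envelope genes summed to 502 CPM in WT basal replicate 2, against 135 and 189.7 CPM in the other WT basal libraries, and to 138.9 CPM in MMTVRANK basal replicate 3, against 177 and 129 CPM in replicates 1 and 2. Of these genes, 11 reached 1 CPM in WT basal replicate 2, against 5 and 6 in the other WT basal libraries. In MMTVRANK basal replicate 3, 8 did, against 6 and 5 in replicates 1 and 2. Not every member was highest in WT basal replicate 2, since Calml3 had 25.5 CPM in it and 68.8 CPM in replicate 1, and Tgm1 had 33.4 CPM in it and 94.9 CPM in replicate 3. Among genes singled out after their values were seen, Dmkn was at 107 CPM, Dsg1a at 46.8 CPM and Krtdap at 22.4 CPM in WT basal replicate 2, and all 3 were at 0 in WT basal replicates 1 and 3 and in MMTVRANK basal replicates 1 and 2. In MMTVRANK basal replicate 3 they were at 7.82, 5.94 and 1.80 CPM, and luminal libraries held Dmkn at up to 8.995 CPM (WT luminal replicate 2) and Dsg1a at up to 14.3 CPM (MMTVRANK luminal replicate 3). The late cornification genes Lor and Flg were at 0.718 and 0.79 CPM in WT basal replicate 2. Krt15, Krt16, Krt80, Krt6a, Krt23, Krt5, Krt78, Krt27, Krt28 and Krt71 were also at their highest WT basal level in WT basal replicate 2. So were the luminal keratins Krt8 and Krt19, while Krt7, Krt14, Krt17 and Krt18 were not. What part skin cells have in these keratin values was not tested.

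**Figure D4:**
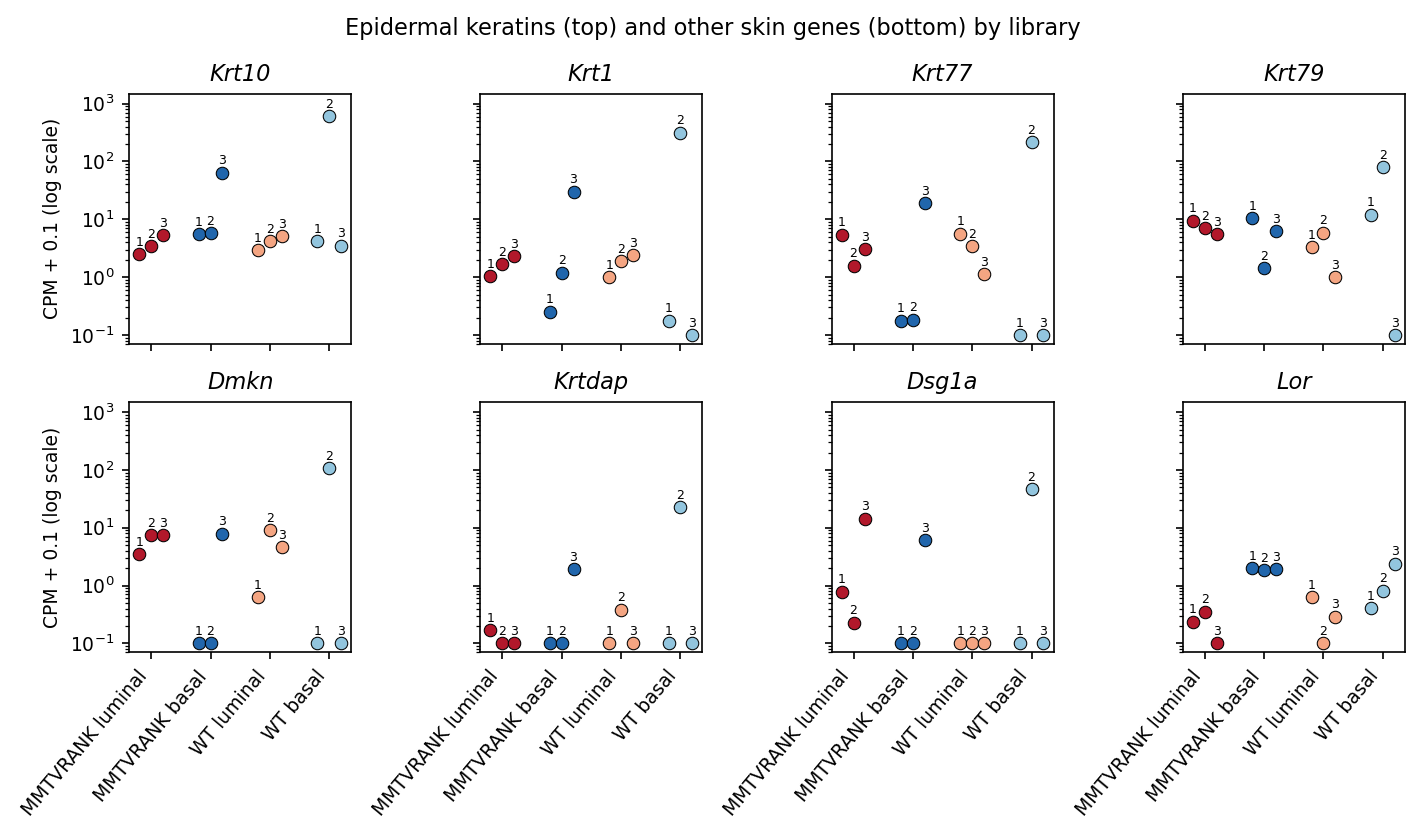
CPM + 0.1 on a log axis for 4 epidermal keratins (top row) and 4 other skin genes (bottom row), with 1 point a library, numbered by replicate. WT basal replicate 2 is the highest library in every panel but that of Lor, and MMTVRANK basal replicate 3 is second for Krt10, Krt1, Krt77 and Krtdap.

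MMTVRANK and WT were then compared within each population, the question the transgene poses. In luminal cells 0 of 30 keratins passed, against 0.252% of all genes (0.0932% higher and 0.159% lower), with 7 at an unadjusted p under 0.05 and a smallest adjusted p of 0.174 by edgeR's quasi-likelihood test (0 by DESeq2 and by limma-voom). Groups did not overlap for 7 keratins, against 16.9% of all genes, and the median log2 fold change was 0.15 (0.03 over all genes). The 4 main luminal keratins had lower values in each MMTVRANK luminal library than in each WT luminal library. MMTVRANK luminal replicate 3 was the lowest luminal library for all 4. The log2 fold changes were -0.67 ± 0.24 for Krt18 (adjusted p = 0.253), -0.60 ± 0.23 for Krt8 (adjusted p = 0.308), -0.79 ± 0.41 for Krt19 (adjusted p = 0.508) and -0.77 ± 0.39 for Krt7 (SE, adjusted p = 0.482). With 1 library left out at a time they ranged from -0.86 to -0.50 for Krt18 and from -0.80 to -0.45 for Krt8. The ranges were -1.08 to -0.52 for Krt19 and -1.05 to -0.54 for Krt7. The 17 luminal markers that are not keratins summed to 8024, 7551 and 4980 CPM in MMTVRANK luminal libraries. In WT luminal libraries they summed to 14020, 9264 and 10517 CPM, with no overlap either. Prlr, among the largest members, was at 2335, 2010 and 788 CPM, against 4707, 2574 and 3511 CPM. Not every member was lower, since Wfdc18 was at 163, 476 and 441 CPM, against 30.0, 288 and 215 CPM. MMTVRANK luminal replicate 3 was the highest luminal library for Cd14 and Cldn3. Of the 17, 0 passed as higher and 1 as lower, against 0.0932% and 0.159% of all genes. What part the luminal share of cells has in these values was not tested.

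The basal keratins had values on the other side of 0 in luminal cells. Krt23 had the smallest p, with 5.10, 9.64 and 22.9 CPM in MMTVRANK luminal libraries, against 0, 3.47 and 0.38 CPM in WT luminal libraries. These groups did not overlap, and the log2 fold change was 3.29 ± 0.94 (SE, adjusted p = 0.174). Krt14 had a value of 2.42 ± 0.77 (adjusted p = 0.213), Krt17 of 2.10 ± 0.83 (adjusted p = 0.336) and Krt5 of 0.93 ± 0.73 (SE, adjusted p = 0.745), while Krt15 had -0.48 ± 0.79 (SE, adjusted p = 0.918). MMTVRANK luminal replicate 3 was the highest for Krt14, Krt17 and Krt23, and its basal markers summed to 516 CPM, against 115 and 117 CPM in the other MMTVRANK luminal libraries. Its leukocyte markers summed to 1103 CPM, against 129 and 160 CPM in replicates 1 and 2. Lcp1 made most of these lower sums, at 120 and 132 CPM, and was at 182 CPM in replicate 3. Of the 15 leukocyte markers, 13 reached 1 CPM in replicate 3, against 3 in each of replicates 1 and 2. Without MMTVRANK luminal replicate 3, the values were 1.37 for Krt14, 1.60 for Krt17 and 2.49 for Krt23. What part other cells have in these values was not tested.

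In basal cells 0 of 30 keratins passed, against 0.00548% of all genes (1 gene), with 5 at an unadjusted p under 0.05 and a smallest adjusted p of 0.652 by edgeR's quasi-likelihood test. DESeq2 called 2 of them, Krt18 and Krt80. Groups did not overlap for 4 keratins, against 11.1% of all genes, and the median log2 fold change was -0.67 (0.00 over all genes). Krt18 had 55.2, 45.1 and 42.4 CPM in MMTVRANK basal libraries, against 107, 74.6 and 95.2 CPM in WT basal libraries. The MMTVRANK libraries were all lower, and the difference was -0.96 ± 0.24 (log2, SE, adjusted p = 0.652 by edgeR, 0.0399 by DESeq2). The 17 luminal markers that are not keratins likewise summed to 497, 441 and 468 CPM in MMTVRANK basal libraries. In WT basal libraries they summed to 597, 620 and 661 CPM, with no overlap. Not every member was lower, since Csn3 was at 34.9, 20.1 and 41.0 CPM, against 14.3, 29.3 and 18.7 CPM. Of the 17, 0 passed in either direction. What part luminal cells have in the Krt18 value was not tested. Krt80 had 3.32, 5.47 and 6.80 CPM in MMTVRANK basal libraries, against 12.04, 62.4 and 9.89 CPM in WT basal libraries. These groups did not overlap either (-2.44 ± 0.61, SE, adjusted p = 0.652 by edgeR, 0.0131 by DESeq2), and without WT basal replicate 2 the value was -1.07. For the main basal keratins the values were -0.43 ± 0.71 for Krt14, -0.17 ± 0.64 for Krt5, -0.40 ± 0.74 for Krt15 and -0.59 ± 0.78 for Krt17 (SE, none passed).

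**Figure D5:**
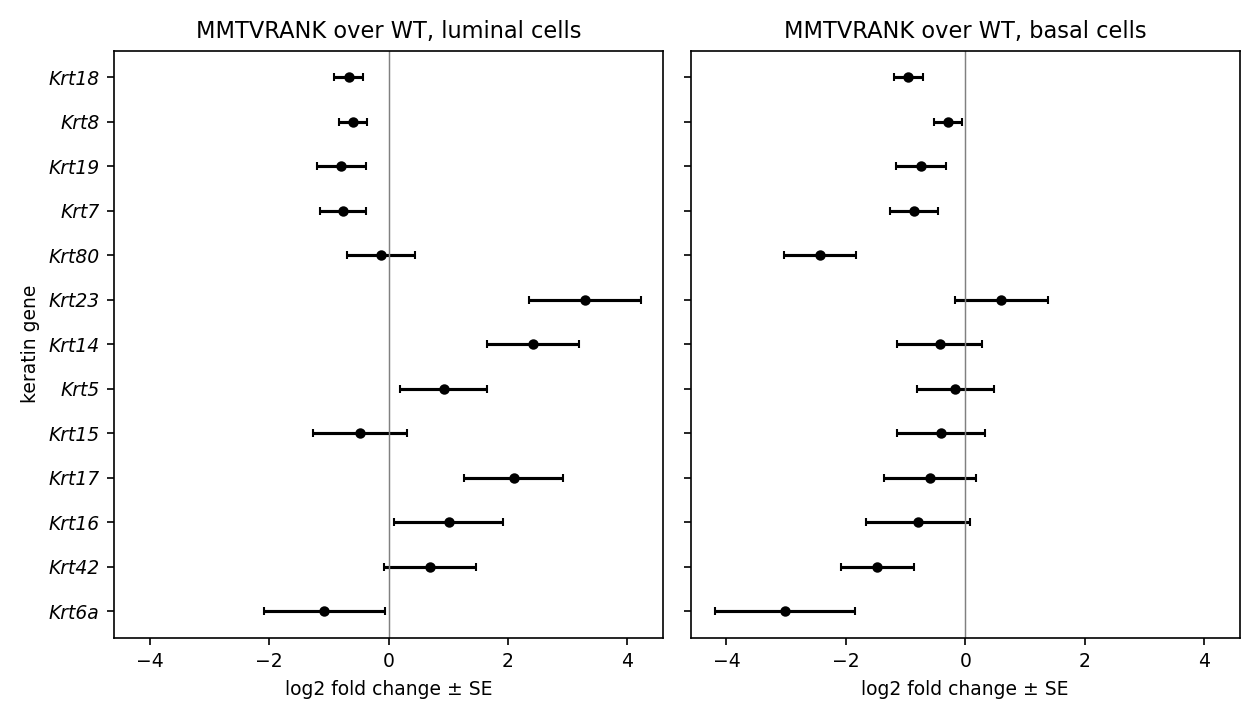
Log2 fold change of MMTVRANK over WT with its SE for 13 keratins, in luminal cells (left) and basal cells (right), with a grey line at 0. None of these differences passed the test, and the 4 luminal keratins Krt18, Krt8, Krt19 and Krt7 have values below 0 in both panels.

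The luminal over basal difference itself was compared between genotypes by an interaction term. Of 30 keratins 0 passed, against 0.00548% of all genes, with 8 at an unadjusted p under 0.05 and a smallest adjusted p of 0.560 by edgeR's quasi-likelihood test (0 by DESeq2 and by limma-voom). The median was 1.73 (0.05 over all genes). The values were 2.85 ± 1.0 for Krt14, 2.68 ± 1.1 for Krt17, 2.69 ± 1.2 for Krt23 and 2.30 ± 0.82 for Krt80, against 0.29 ± 0.34 for Krt18 and -0.32 ± 0.33 for Krt8 (SE). That of Krt80 was 0.94 without WT basal replicate 2, that of Krt14 was 1.84 without MMTVRANK luminal replicate 3, and that of Krt23 was 1.93 without MMTVRANK luminal replicate 3 and 5.28 without WT luminal replicate 2. So a keratin that passed in 1 genotype alone was not shown to differ between genotypes.

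Genes that work with keratins were read from the same fit. Of 13 other cytoplasmic intermediate filament genes 9 were tested, and 3 fell in MMTVRANK and 4 in WT luminal cells, none rising. Of all genes, 17% fell and 16.1% rose in MMTVRANK luminal cells, and 20% fell and 18% rose in WT luminal cells. Synm, a partner of desmin and vimentin filaments, fell by 6.63 ± 0.66 in MMTVRANK and by 5.51 ± 0.62 in WT on the log2 scale (SE), and Vim fell by 3.13 ± 0.79 in MMTVRANK and by 6.02 ± 0.91 in WT (SE). Vim is also a gene of fibroblasts and leukocytes. Fibroblast markers summed to 325 to 502 CPM in MMTVRANK luminal, against 1182 to 1213 CPM in MMTVRANK basal libraries, and to 418 to 536 CPM in WT luminal, against 3462, 1064 and 739 CPM in WT basal libraries. In WT, 9 of the 10 fell in luminal cells and 1 rose, against 20% and 18% of all genes. Col6a3 was at 279, 380 and 398 CPM in WT luminal, against 133, 51.7 and 88.0 CPM in WT basal libraries. Fbn1 was at 1.27, 1.35 and 5.52 CPM in WT luminal, against 420, 474 and 378 CPM in WT basal libraries. The WT luminal sums thus rest mostly on Col6a3, and what part fibroblasts have in these sums was not tested. Vim was highest in WT basal replicate 1 (659.5 CPM) and, among luminal libraries, in MMTVRANK luminal replicate 3 (82.8 CPM), the library with most leukocyte marker RNA, and the part of such cells in its value was not tested. Nes fell in both genotypes and Des, the muscle filament gene, in WT. Of 14 plakins and filament anchors all were tested, with 2 higher and 6 lower in MMTVRANK luminal and 2 higher and 5 lower in WT luminal cells, against 16.1% higher and 17% lower of all genes in MMTVRANK and 18% and 20% in WT. The plakophilins, which bind keratins to desmosomes, did not all go the same way. Pkp1 fell by 2.15 ± 0.39 in MMTVRANK and by 2.95 ± 0.40 in WT (SE). Pkp3 and Pkp4 also lay lower in luminal than in basal libraries of each genotype. The exception was Pkp3 in WT luminal replicate 2, which lay above WT basal replicate 3. Pkp2 alone rose, by 6.73 ± 0.86 in MMTVRANK and by 6.15 ± 0.82 in WT (SE). Pkp2 had 53.3, 56.7 and 50.6 CPM in MMTVRANK luminal libraries, against 1.21, 0.168 and 0.0782 CPM in MMTVRANK basal libraries, with no overlap. Perp, a desmosome gene and p63 target, fell by 2.91 ± 0.36 in MMTVRANK and by 2.92 ± 0.36 in WT (SE).

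Of 22 cornified envelope genes 9 were tested, with 0 higher and 3 lower in MMTVRANK luminal and 1 higher and 3 lower in WT luminal cells. Of all genes, 16.1% were higher and 17% lower in MMTVRANK, and 18% and 20% in WT. Lgals7 and Calml3, both genes of stratified epithelia, fell in both. The log2 fold changes of Lgals7 were -3.30 ± 0.52 in MMTVRANK and -5.22 ± 0.57 in WT, and those of Calml3 were -4.31 ± 0.81 in MMTVRANK and -6.82 ± 0.99 in WT (SE). Of 16 epithelial transcription factors all were tested, with 6 higher and 4 lower in MMTVRANK luminal and 5 higher and 3 lower in WT luminal cells, against 16.1% higher and 17% lower of all genes in MMTVRANK and 18% and 20% in WT. Trp63, the master factor of basal epithelial cells, fell by 7.84 ± 0.55 in MMTVRANK and by 9.12 ± 0.60 in WT (SE). Foxa1, a factor of hormone-responsive luminal cells, rose by 7.85 ± 0.55 in MMTVRANK and by 7.80 ± 0.54 in WT (SE). Elf3 rose by 3.31 ± 0.23 in MMTVRANK and by 3.14 ± 0.22 in WT (SE), and Tfap2c fell by 2.5 ± 0.37 in MMTVRANK and by 3.24 ± 0.38 in WT (SE). In the genotype comparisons 0 genes of these 4 lists passed.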

How the data were processed

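The deposited table holds raw counts for each symbol. They came from featureCounts 1.5.2 on GENCODE M17 with no strand or multimapping option, per the file headers, after alignment with STAR 2.6.1b to GRCm38.p6, per the submitters' processing notes. RNA came from cells sorted on CD24 and CD49f and was made into libraries with a stranded total RNA kit, per the labels' protocols. The deposited exon length column was used to turn CPM into RPKM. Of the 53735 symbols, 15946 had no count.

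Genes were kept by filterByExpr of edgeR 4.0.16 (count minimum 10), which left 18236. TMM factors were applied, and 1 quasi-likelihood model was fitted over 12 libraries and 4 groups in R 4.3.3 (biological coefficient of variation 0.450). Every adjusted p is Benjamini-Hochberg over all genes kept, and each SE was derived as the effect divided by the root of its F statistic. Alternatives used DESeq2 1.42.0, limma-voom (limma 3.58.1), RLE factors, other filters, the replicate block and libraries left out. The scripts were tested on simulated counts. Libraries held 12459547 to 15069578 counts, at which 1 CPM is 11.7 to 17.1 scaled counts. No pair of libraries was a duplicate.

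Same-numbered libraries were checked for pairing by the correlation of their deviations from group means over 10082 genes. For numbers 1, 2 and 3 it was 0.278, 0.144 and 0.199 between MMTVRANK luminal and basal, 0.277, 0.168 and 0.343 between WT luminal and basal, 0.525, 0.125 and 0.392 between genotypes in luminal, and 0.404, -0.0706 and 0.0915 between genotypes in basal cells. The numbers were read as pairing in all but the last, on the data alone, since no label explains the numbers. The replicate block was 1 factor over all 4 groups, so it also tied the genotypes in basal cells. The main tests used no block.

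Every keratin with a mean of 10 CPM in a group or past the threshold is given by library. From other lists, up to 4 genes with the smallest p for luminal over basal in WT, and up to 2 in each genotype comparison, could be named. Dmkn, Dsg1a, Krtdap, Lor, Flg, Col6a3, Fbn1, Prlr, Wfdc18, Cd14, Cldn3, Csn3, Lcp1, Pkp3, Pkp4, Krt20 and Krt6b were named after their values were seen. The members and lists were chosen with earlier results of these data known. Exon overlaps came from the deposited table and shared 50-base stretches from GENCODE M21 transcripts.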

Additional observations from a re-analysis of the deposited data

How the results depend on the processing

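Of the 34 luminal over basal calls, 23 passed under every alternative and 33 kept their direction under all, Krt10 in WT being the exception. Leaving out 1 library gave 12 to 17 keratins called for luminal over basal in MMTVRANK and 14 to 21 in WT, and 0 in the other comparisons. Without a low count filter, 8 keratins passed for MMTVRANK over WT in luminal cells, 8 in basal cells and 10 for the difference of effects, against 0 in each, and the cause was not tested. Without both WT replicate 2 libraries 1 keratin, Krt23 (5.89, adjusted p = 0.0368), passed for MMTVRANK over WT in luminal cells, and DESeq2 called 2 in basal cells. With a 5 CPM minimum, 12 keratins were expressed in MMTVRANK luminal and 9 in WT luminal cells.

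For luminal over basal in WT, limma-voom turned Krt80 to 0.17 and Krt1 to 0.25. Without both WT replicate 2 libraries the values were 0.063 for Krt10, 1.09 for Krt80 and 5.03 for Krt1. Without WT basal replicate 2 and MMTVRANK basal replicate 3 together, chosen after seeing the data, they were 0.084, 1.07 and 5.09. In basal cells, Krt5 for MMTVRANK over WT turned to 0.27 and 0.28 under these same choices, and Krt8 to 0.0044 under the second. Leaving out 1 library at a time gave -6.24 to 0.087 for Krt10, -0.69 to 1.07 for Krt80 and -6.55 to 5.08 for Krt1 in WT, and -0.33 to 0.27 for Krt5 in basal cells.

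Over all genes, MMTVRANK over WT called 46 in luminal cells (3 to 1353 over the alternatives), 1 in basal cells (0 to 349) and 1 for the difference (0 to 776). The replicate block gave 17 keratins for luminal over basal in MMTVRANK (15 without it) and 16 in WT (19 without it), and it moved no other keratin call. RLE factors shifted no comparison by over 0.1. The fit of only the 2 groups compared was not run for the difference of effects, which needs all 4. At 11.7 to 17.1 counts per CPM, the calls of Krt27, Krt28, Krt31 and Krt32 rest on 29 to 65 counts in the higher group.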
